A study of Mus musculus with 23 samples.

Results

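Cardiac macrophages of control mice were compared between the infarcted heart 3 days after coronary occlusion and the uninjured heart. The comparison rests on 8 of the 23 libraries of the study: 3 baseline and 5 day 3 libraries, all from S7fl/fl mice, chosen by genotype and time point alone. It was read across 16545 expressed genes of the 54532 in the deposited table. S7fl/fl mice are C57BL/6 littermate controls with Smad7 fl/fl alleles and no Cre, so every library here carries loxP sites at Smad7, and no library of a mouse without them was included. The other genotype, MyS7KO, adds LyzM-Cre, a Cre recombinase under the lysozyme M promoter, and has 3 baseline, 5 day 3 and 4 day 7 libraries; S7fl/fl has 3 day 7 libraries. Infarction was made by permanent ligation of the left anterior descending coronary artery, without reperfusion. The cells were depleted of Ly6G+ neutrophils and then selected for CD11b on magnetic columns, and their polyA RNA was sequenced. The labels do not say whether each library is a separate heart, so p-values measure the spread between libraries, which may be technical in part. Ages are not given in the sources used here, and the study has no sham-operated group: the baseline hearts had no operation named in the labels.

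The uninjured heart holds resident macrophages that clear debris, present antigen and support conduction and vessels, and many of them are seeded before birth. After coronary occlusion a large part of the resident cells in the ischaemic territory die, and blood monocytes that carry the chemokine receptor Ccr2 enter the wound. The recruited cells first digest dead tissue and release inflammatory mediators, and later turn to repair and scar formation. A bulk RNA measure of CD11b+ cells reads all of these cells together: fewer cells of a type and less RNA per cell cannot be told apart.

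The libraries held 15479402 to 21011705 counts in genes, so levels well under 1 CPM (1 count per 1000000) rest on a few counts. The 10 macrophage markers summed to 14350.5 to 16136 CPM at baseline and 16524 to 19031 at day 3, so the labelled cell type was present in every library. Ly6g, the marker used for depletion, was too low to be tested. Markers of other heart cells were measurable and moved with the comparison. The 8 endothelial markers summed to 1490.3 to 1980.2 CPM at baseline and 279 to 639 at day 3, and the 8 mural cell markers to 1268 to 1834 and 132 to 225. Xist marked 2 baseline and 2 day 3 libraries, and Y-linked genes marked 1 and 3, so the groups were not balanced for sex. Day 3 replicate 4 held Xist together with Y-linked transcripts at 7.84% of the level in Y-linked libraries, so it held RNA of both sexes. Counts without it are given beside the main ones. Day 3 replicate 3, marked by Y-linked genes, held Xist at 1.31% of the level in Xist libraries. In MyS7KO day 3 replicates 2 and 3, which enter the fit and the test between genotypes, transcripts of the other sex stood at 2.05% and 2.77%. The share of counts in annotated ribosomal RNA genes was 0.218% to 0.593% at baseline and 0.0926% to 0.78% at day 3.

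Most expressed genes were at another level 3 days after occlusion. Of the 16545 genes, 10589 (64%) passed an adjusted p of 0.05 in edgeR's quasi-likelihood test: 4941 (29.9%) were higher and 5648 (34.1%) lower than at baseline. A change of at least 2-fold was called for 1698 genes (10.3%) on the higher side and 3814 (23.1%) on the lower side. A change of at least 4-fold was called for 439 higher and 1976 lower genes. In 9656 genes (58.4%) no day 3 library overlapped a baseline library, whatever the test said. The median log2 change of all genes tested was -0.06. The scaling of the libraries (TMM) treats most genes as unchanged and so draws this median towards 0. With 64% of genes called, that assumption is doubtful, and the median does not show that 0 is the right reference. All changes are relative to this scaling, and a shift shared by most genes would not be seen. Without day 3 replicate 4 the counts were 4793 higher and 5445 lower. Without the 3 day 3 libraries of either genotype that held over 2% of the other sex, they were 4762 and 5413. With sex as a covariate they were 4929 and 5655. The first principal component of the 11 S7fl/fl libraries held 77.1% of the variance of the 1000 most variable genes and set the 3 baseline libraries apart from all others. With shares this high, a count of called genes in a list says little by itself, and each list is set beside 29.9% higher, 34.1% lower and the median of -0.06.

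**Figure D1:**
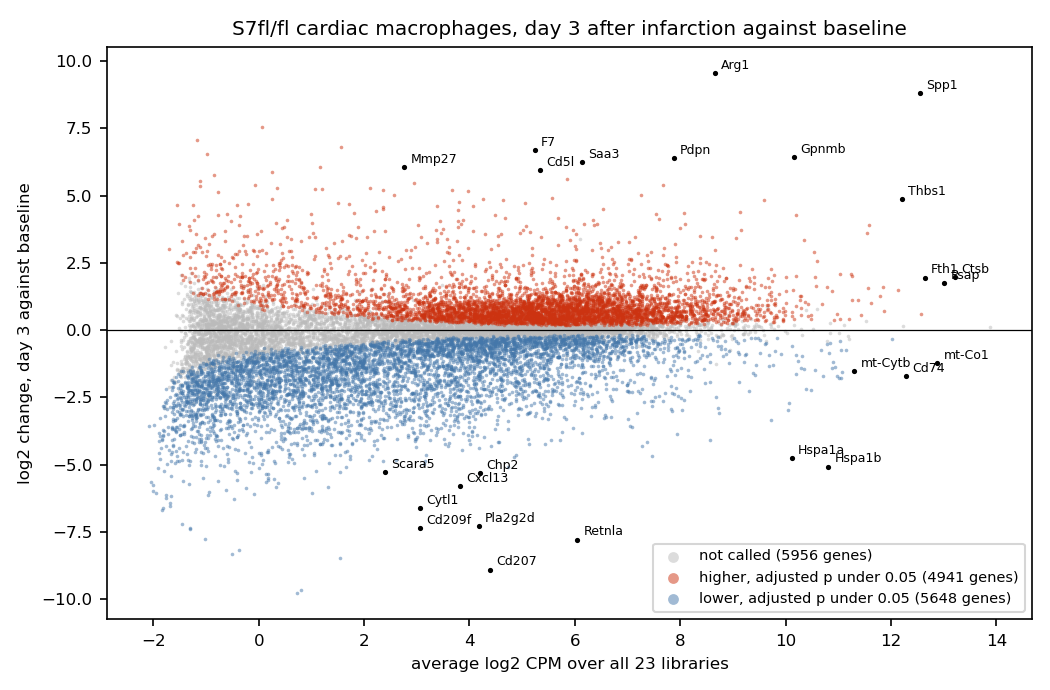
Log2 change from baseline to day 3 (vertical axis) against average log2 CPM over all 23 libraries (horizontal axis) for each of the 16545 genes tested. Red points are the 4941 genes called higher, blue points the 5648 called lower and grey points those not called; black points are the genes with the largest fold or the largest difference in CPM among those averaging a log2 CPM of 2 or more.

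Among genes whose log2 CPM averaged 2 or more and whose groups did not overlap, those that rose most by fold were led by secreted, surface and metabolic proteins known from activated macrophages. Spp1, which encodes osteopontin, a matrix protein and cytokine, lies at chr5:104435118-104441050 on the plus strand (GRCm38). It read 22.1, 18.2 and 33 CPM in the baseline libraries and 8499, 10206, 10495, 14717 and 11058 CPM in the day 3 libraries. Every day 3 library was far above every baseline library, with a log2 change of 8.81 ± 0.37 (SE; adjusted p = 5.4e-14). Arg1, arginase 1, the enzyme that splits arginine into ornithine and urea, lies at chr10:24915221-24927484 on the minus strand. It rose from 1.24, 0.905 and 1.37 CPM to 389, 1520.2, 535, 1331 and 704 CPM, a log2 change of 9.55 ± 0.83 (adjusted p = 1.3e-08). Arg1 was near the detection limit at baseline, and day 3 replicates 2 and 4 were the highest of the 5. Gpnmb, a lysosomal and surface glycoprotein at chr6:49036546-49070929, rose from 12.3, 14.1 and 17.4 to 1194, 879, 1436, 1300.5 and 1435 CPM. Pdpn, the mucin-like membrane protein podoplanin at chr4:143267431-143299564, went from 4.46, 5.32 and 4.96 to 325, 463, 398, 475 and 419 CPM. The groups were far apart for both, with log2 changes of 6.41 ± 0.36 and 6.41 ± 0.29.

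Coagulation factor VII, F7, stood at 0.743, 0.679 and 0.855 CPM in the baseline libraries and at 57.5, 84, 69.4, 101 and 81.9 CPM at day 3 (log2 change 6.67 ± 0.25, adjusted p = 1.1e-14). Cd5l, a secreted scavenger protein of macrophages, rose from 0.702, 1.19 and 1.07 to 40.2, 76.3, 53.6, 67.7 and 67 CPM. Saa3, an acute phase serum amyloid protein, rose from 2.56, 1.3 and 0.727 to 24.3, 259.6, 40.4, 189 and 72.1 CPM. Its day 3 libraries spread over more than 10-fold, with replicates 2 and 4 again the highest. That none reached down to the baseline range was a condition of its choice. The log2 change of Saa3 was 6.23 ± 1.38 in edgeR's test (adjusted p = 7.6e-04), 5.67 in limma-voom, where it did not pass (adjusted p = 0.108), and 6.90 without baseline replicate 1 (edgeR adjusted p = 0.0036). Mmp27, a matrix metalloproteinase, held only a few counts per library at baseline (0.0826, 0.17 and 0.299 CPM) and 12.7, 11.5, 14.8, 13.6 and 11.4 CPM at day 3.

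By absolute amount, Spp1 was followed by Thbs1, the matricellular protein thrombospondin 1, which rose from 389, 321 and 305 CPM to 8742, 12476, 8949, 11306 and 7800.5 CPM. Ctsb, the lysosomal protease cathepsin B, rose from 3056, 3430.0 and 3085 to 11959.9, 11258, 13541, 11579.6 and 13701 CPM. Psap, the precursor of the saposins that help to degrade sphingolipids, rose from 2715, 3584 and 2819 to 9783, 8829, 11012, 10480.5 and 11352 CPM. Fth1, the ferritin heavy chain that stores iron, rose from 1994, 2841 and 1632 to 7531, 7474, 7935, 8972 and 9760.1 CPM. Their log2 changes were 4.86 ± 0.29, 1.96 ± 0.15, 1.76 ± 0.16 and 1.95 ± 0.16. That no library of either group overlapped the other was a condition of their choice.

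**Figure D2:**
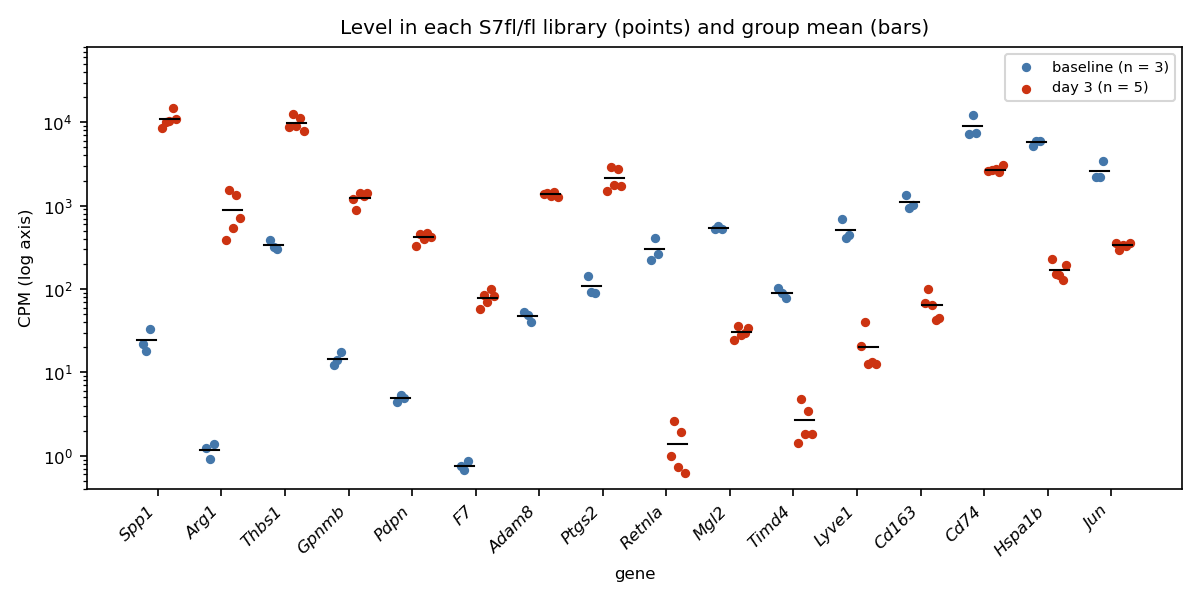
CPM on a log axis of 16 genes in each S7fl/fl library, with 3 baseline points (blue), 5 day 3 points (red) and a black bar at each group mean. The points of each gene fall into separate ranges at baseline and day 3, higher at day 3 for Spp1 through Ptgs2 and lower for Retnla through Jun.

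By the same measure the genes that fell most were led by lectins and secreted proteins of the uninjured heart. Retnla, a resistin-like protein induced by interleukin 4 in macrophages, lies at chr16:48842551-48844461 and fell from 224, 411 and 264 CPM to 0.988, 2.59, 0.739, 1.9 and 0.629 CPM. That is a log2 change of -7.79 ± 0.58 (adjusted p = 2.0e-09), and the lowest baseline library was far above the highest day 3 library. Cd207, the C-type lectin langerin at chr6:83671215-83677857, stood at 141, 73.8 and 51.1 CPM at baseline and at 0.198, 0.194, 0.269, 0.127 and 0.114 CPM at day 3, where libraries held only a few counts. Cd209f, a lectin of the DC-SIGN family, stood at 40.1, 30.8 and 31.1 CPM and then at 0.198, 0.259, 0.0672, 0.254 and 0.229 CPM, down to 1 count in a library. Pla2g2d, a secreted phospholipase A2, fell from 54.8, 64.4 and 81.4 to 0.445, 0.259, 0.806, 0.317 and 0.286 CPM. Chp2, a calcineurin B homologous protein, fell from 58.4, 59.9 and 74 to 2.42, 1.62, 1.54, 1.01 and 1.31 CPM.

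Cytl1, a small secreted protein, read 26.4, 43.3 and 37.5 CPM at baseline and 0.494, 0.259, 0.403, 0.19 and 0.4 CPM at day 3. The B cell chemokine Cxcl13 read 93.7, 42 and 35.2 CPM and then 0.148, 3.37, 0, 1.78 and 0 CPM, with no count in 2 day 3 libraries; replicates 2 and 4 held nearly all of its day 3 counts. Scara5, a scavenger receptor that binds ferritin, read 17.1, 13.1 and 21.1 and then 0.543, 0.712, 0.202, 0.127 and 0.572 CPM. These genes were called lower, with adjusted p of 6.7e-11, 4.8e-06 and 1.5e-06, and their day 3 levels rest on few counts. Of 9 fibroblast markers 5 also fell and 0 rose, and the part of fibroblasts in the fall of Scara5 was not tested. B cell markers summed to 172 to 206 CPM at baseline and 27.5 to 43 at day 3 in the same libraries, and their part in the fall of Cxcl13 was not tested.

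By difference in mean CPM the 5 largest losses were those of mt-Co1, Cd74, Hspa1b, Hspa1a and mt-Cytb. mt-Co1 and mt-Cytb, encoded in the mitochondrial genome, and the inducible heat shock proteins Hspa1b and Hspa1a are described with their groups. Cd74, the invariant chain of MHC class II, fell from 7248, 12225 and 7368 CPM to 2577, 2654, 2735, 2544 and 3048 CPM (log2 change -1.72 ± 0.17, adjusted p = 1.4e-08). H2-Aa, the class II alpha chain, fell from 3297, 4262 and 3471 to 981, 1188, 1086, 938 and 1218 CPM. The groups did not overlap for H2-Aa, and for Cd74 this was a condition of its choice.

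**Figure D3:**
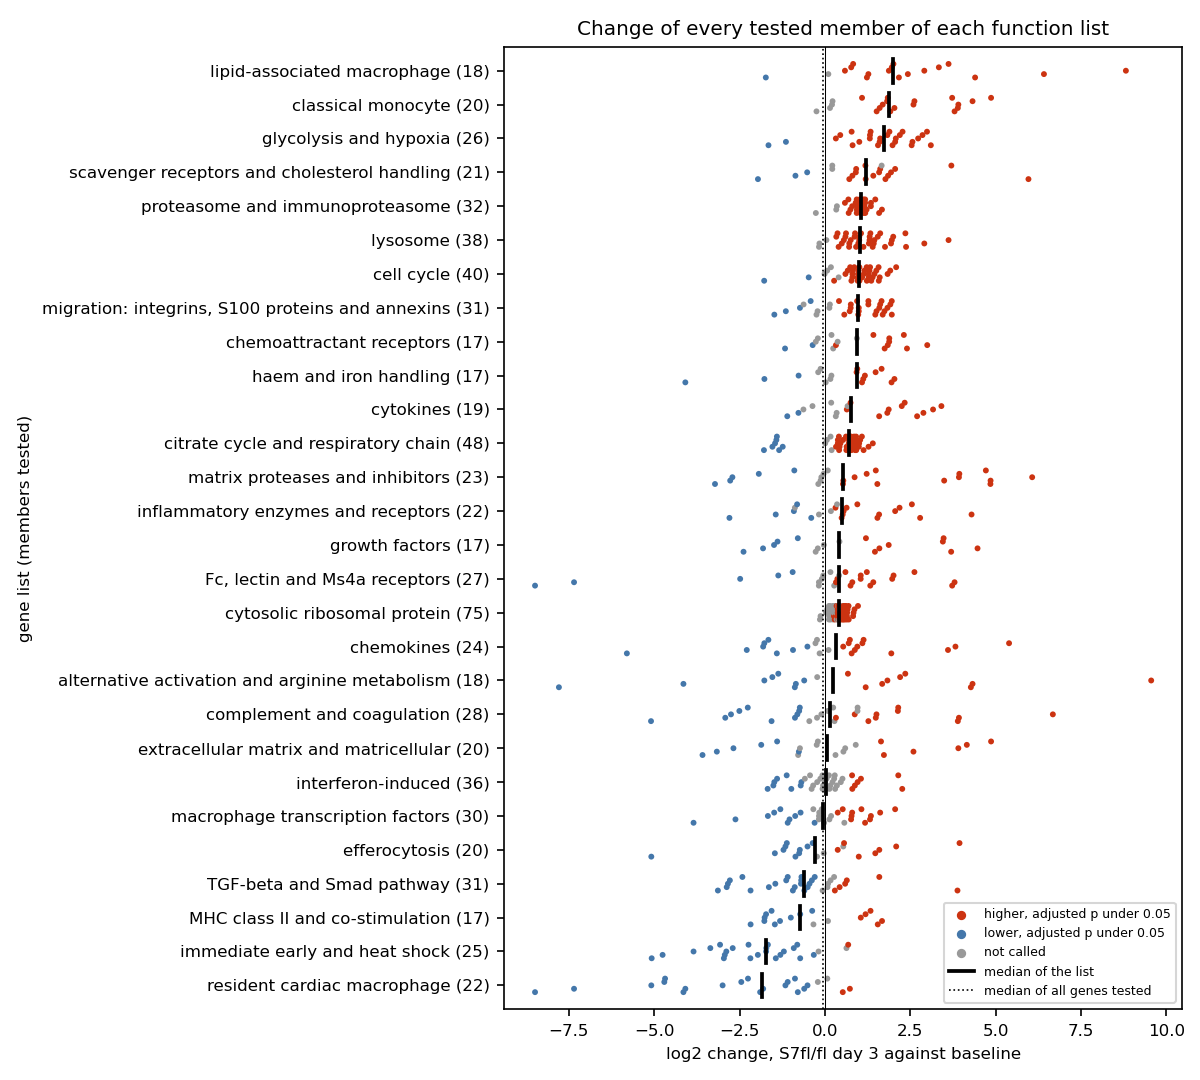
Log2 change from baseline to day 3 (horizontal axis) of every tested member of the 28 function lists, ordered by list median. Points are genes (red called higher, blue called lower, grey not called), the thick bar is the median of the list and the dotted line the median of all genes tested, -0.06; lipid-associated macrophage genes have the highest median and resident cardiac macrophage genes the lowest.

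Most genes of resident cardiac macrophages fell. Of 22 on that list 18 were lower and 2 higher, with a median log2 change of -1.85. Timd4, a receptor for phosphatidylserine on dying cells and a marker of self-renewing resident macrophages, fell from 102, 88.9 and 77.3 CPM to 1.43, 4.79, 1.81, 3.49 and 1.83 CPM (log2 change -5.08 ± 0.32, adjusted p = 1.1e-10). Lyve1, a hyaluronan receptor, fell from 688, 404 and 442 to 20.7, 40.7, 12.5, 13.4 and 12.6 CPM. Mgl2, a galactose-binding lectin, fell from 522, 566 and 527 to 24.8, 36.1, 28.4, 29.6 and 33.8 CPM. Cd163, the haemoglobin scavenger receptor, fell from 1337, 942 and 1013 to 68.8, 101, 65.2, 42.3 and 45.5 CPM. For each of these genes the groups were separate by a wide margin. Folr2, the folate receptor beta, fell less, with a log2 change of -2.25 ± 0.12, and Cd209g stood at 11.8, 12.2 and 8.94 CPM at baseline and held at most 1 count in any day 3 library.

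The fall was uneven among these genes. Mrc1, the mannose receptor, changed by -0.61 ± 0.18 on the log2 scale, and F13a1, the A chain of coagulation factor XIII, by -0.88 ± 0.23. Maf, a transcription factor of resident macrophages, and Mertk, the receptor tyrosine kinase for apoptotic cells, changed by -1.09 ± 0.14 and -0.51 ± 0.13. Igf1, insulin-like growth factor 1, fell from 149, 158 and 166 to 104, 68.8, 109, 76.2 and 96.3 CPM. Cx3cr1, the fractalkine receptor, did not pass the test: it read 123, 178 and 124 CPM at baseline and 118, 108, 174, 106 and 107 CPM at day 3, and the groups overlapped (log2 change -0.21 ± 0.20, adjusted p = 0.36). Siglec1, a sialic acid receptor, was the other member that did not pass (log2 change 0.07 ± 0.20). Pf4, platelet factor 4, and Ednrb, the endothelin B receptor, rose, with log2 changes of 0.73 ± 0.19 and 0.52 ± 0.14. The summed platelet markers, given below, were also higher at day 3, but of the 5 tested only Ppbp rose and 2 fell. The part of platelets in the rise of Pf4 was not tested.

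Genes of classical monocytes moved the other way: 16 of 20 were higher and none lower, with a median of 1.88. Ccr2, the receptor by which monocytes follow Ccl2 into tissue, rose from 94.2, 85.6 and 119 CPM to 285, 352, 357, 482 and 306 CPM (log2 change 1.84 ± 0.17, adjusted p = 4.3e-09), and every day 3 library exceeded every baseline library. Ly6c2, whose protein marks these monocytes, rose from 14.7, 21.3 and 10.3 to 35.7, 42.5, 33.6, 117 and 43.9 CPM; day 3 replicate 4 was well above the other four, and its reads may be shared with the near-identical gene Ly6c1. Plac8, a small cysteine-rich protein of immature myeloid cells, rose from 46.9, 40.9 and 35.7 to 71.5, 132, 73.5, 217 and 94 CPM, again highest in replicate 4. Clec4d, a lectin that senses microbial lipids, rose from 41.9, 26.2 and 19.6 to 319, 480.4, 334, 463 and 438 CPM. S100a4, a calcium-binding protein of motile cells, rose from 1.32, 3.56 and 1.54 to 5.63, 6.67, 6.98, 7.49 and 13 CPM. Without day 3 replicate 4 the log2 change of Ly6c2 was 1.34 (edgeR adjusted p = 0.0041) in place of 1.82, and that of Plac8 was 1.17 (adjusted p = 0.0083) in place of 1.51.

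Most cytokine genes rose: 11 of 19 were higher and 2 lower, with a median of 0.75. Il1b, the pro-inflammatory interleukin 1 beta, stood at 847, 712 and 689.8 CPM at baseline and 1523, 3146, 1589, 2770.1 and 2249 CPM at day 3 (log2 change 1.59 ± 0.25). Il1rn, the receptor antagonist that blocks it, rose more, from 85.9, 92.2 and 53.3 to 602, 933, 710.3, 1050.0 and 806 CPM (log2 change 3.41 ± 0.26, adjusted p = 5.6e-10). Il10, an anti-inflammatory cytokine, rose from 50, 60.7 and 22.2 to 170.0, 196, 200.2, 184 and 303 CPM. Osm, oncostatin M, a cytokine of the interleukin 6 family, rose from 84.6, 106 and 80.5 to 258, 322, 285, 406 and 379 CPM. For these cytokines no day 3 library reached down to the baseline range, and day 3 replicate 5 stood above the others for Il10. Tnf did not pass the test; it read 374, 377 and 270.1 CPM at baseline and 191, 298, 207, 355 and 273 CPM at day 3, ranges that overlapped (log2 change -0.36 ± 0.19, adjusted p = 0.094). Without day 3 replicate 4 the call for Tnf was lower (log2 change -0.49, edgeR adjusted p = 0.023), as it was without baseline replicate 3 (-0.49, adjusted p = 0.048). The members that fell were Il15, which sustains lymphocytes, and Csf1, the growth factor of macrophages themselves, with log2 changes of -1.10 ± 0.15 and -0.77 ± 0.27; Csf1 did not pass without baseline replicate 2 (edgeR adjusted p = 0.065) or without the filter on low counts (adjusted p = 0.052).

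Among inflammatory enzymes and receptors 13 of 22 were higher and 5 lower, with a median of 0.51. Ptgs2, the inducible cyclooxygenase of prostaglandin synthesis, rose from 144, 92.5 and 88.7 CPM to 1494, 2918, 1778, 2756 and 1701 CPM (log2 change 4.29 ± 0.27, adjusted p = 2.4e-11). Alox5, the first enzyme of leukotriene synthesis, fell from 135, 148 and 126 to 19.7, 24, 19.1, 17.7 and 17.7 CPM (log2 change -2.79 ± 0.23). The groups of libraries were separate for each of these genes. Other members of the 2 pathways did not all follow them: Ptges, of prostaglandin synthesis, rose (log2 change 2.19 ± 0.66; in limma-voom it did not pass, adjusted p = 0.070), while of leukotriene synthesis Alox5ap rose (0.64 ± 0.14) and Ltc4s fell (-1.44 ± 0.33). Nos2, the inducible nitric oxide synthase, read 11.8, 20.4 and 24.5 and then 8.7, 17.1, 7.45, 8.63 and 9.54 CPM and did not pass (adjusted p = 0.35), but was called lower when only the groups compared entered the fit (log2 change -0.85, edgeR adjusted p = 0.025). Il1r2, the decoy receptor for interleukin 1, had a log2 change of 2.06 ± 0.19, and Socs3, an inhibitor of cytokine signalling, of -0.91 ± 0.17.

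Chemokine genes split, with 12 of 24 higher, 8 lower and a median of 0.32. The neutrophil attractant Cxcl3 rose from 13.4, 14.4 and 6.03 CPM to 278, 632, 274, 705 and 469.6 CPM, a log2 change of 5.39 ± 0.59 (adjusted p = 2.7e-07). Cxcl1, of the same family, rose from 287, 278 and 157 to 805, 958, 834, 1167 and 866 CPM. Ccl2, the monocyte attractant, passed narrowly: it read 387, 397 and 263 CPM at baseline and 339.6, 590.1, 392, 646 and 562 CPM at day 3, the ranges overlapped, and the log2 change was 0.54 ± 0.21 (adjusted p = 0.031). The call for Ccl2 was lost under 9 of the alternatives, among them limma-voom (adjusted p = 0.075) and leaving out baseline replicate 3 or day 3 replicate 2, 4 or 5 (edgeR adjusted p = 0.17, 0.067, 0.081 and 0.060). Ccl3 and Ccl4, chemokines that attract monocytes and lymphocytes, were called lower with log2 changes of -0.51 ± 0.16 and -0.93 ± 0.20, also with overlapping ranges, and Ccl3 did not pass without baseline replicate 2 (log2 change -0.36, edgeR adjusted p = 0.071). Ccl17, a T cell attractant, fell from 3.96, 5.94 and 3.72 to 0.988, 1.1, 1.21, 1.71 and 1.6 CPM. Ccl8, a marker of some resident macrophages, did not pass (log2 change 0.11 ± 0.31, adjusted p = 0.78).

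Of 17 chemoattractant receptors tested 9 rose and 2 fell, with a median of 0.94. Ccr1 rose from 90.8, 70.7 and 37.7 to 278, 448, 299, 425 and 306 CPM and Ccr7, the lymph node homing receptor, from 11.4, 8.88 and 6.5 to 36.5, 51.4, 41, 45.4 and 47.7 CPM. Cxcr4, the receptor for Cxcl12, read 298, 278 and 477 and then 233, 248, 312, 338 and 328 CPM and did not pass. The receptors that fell were Cmklr1, for chemerin, and the scavenging receptor Ackr3, with log2 changes of -0.36 ± 0.08 and -1.17 ± 0.45. Ackr3 did not pass without baseline replicate 2 or 3 or without day 3 replicate 3 or 5 (edgeR adjusted p = 0.055, 0.083, 0.066 and 0.053). Endothelial cells also express Ackr3, and the part of the lower endothelial marker sum in its fall was not tested.

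The programme described in lipid-associated macrophages had the highest median of the 28 lists, 1.98, with 16 of 18 genes higher and 1 lower. It holds Spp1 and Gpnmb, described above. Trem2, the lipid-sensing receptor for which these cells are known, rose from 65.1, 89.7 and 87.2 CPM to 439.8, 358, 451, 409.7 and 512 CPM (log2 change 2.43 ± 0.17, adjusted p = 1.0e-10). Lgals3, galectin 3, rose from 162, 222 and 156 to 1702, 1577, 1752, 1920.2 and 2129.5 CPM. Ctsd, the aspartyl protease cathepsin D, rose from 273, 389 and 303 to 4091, 3155, 4332, 3424 and 4752 CPM. Day 3 and baseline libraries were separate for all of these. Fabp4, a fatty acid carrier also made by capillary endothelium, was the member that fell, from 505, 623 and 748 to 249, 173, 139, 101 and 279 CPM.

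Scavenger receptor and cholesterol genes rose in 15 of 21 cases and fell in 3, with a median of 1.19. Msr1, the class A scavenger receptor, went from 202, 134 and 149 to 483, 733, 566, 667 and 459 CPM. Abca1, the cholesterol exporter, went from 526, 295 and 308 to 1114, 1134, 1143, 921 and 717 CPM, and its highest baseline library was replicate 1. Soat1, which esterifies cholesterol for storage, and Cd68, a lysosomal scavenger protein, rose with log2 changes of 1.77 ± 0.12 and 1.59 ± 0.13. Cd36, the fatty acid and oxidised LDL receptor, fell from 1152, 1094 and 1434 to 671, 697, 671, 678 and 657 CPM. The part of the lower endothelial marker sum in the fall of Cd36 was not tested. Mylip, a ligase that degrades the LDL receptor, fell with a log2 change of -1.96 ± 0.11. Nr1h3, the oxysterol receptor LXR alpha, on the transcription factor list, rose from 7.72, 8.26 and 7.1 to 29.2, 26.2, 33.2, 30.8 and 40.4 CPM.

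Lysosomal genes rose almost without exception, 35 of 38 higher and none lower, with a median of 1.03. Ctsl, cathepsin L, rose from 299.9, 333 and 322 CPM to 2072, 2513, 2254, 2625 and 2489.7 CPM (log2 change 2.91 ± 0.20, adjusted p = 5.3e-11). Ctsk, the collagen-degrading cathepsin K, rose from 5.53, 5.43 and 5.95 to 28.2, 29.2, 29.9, 28.8 and 30.5 CPM. Atp6v0d2, a subunit of the proton pump, rose from 3.02, 3.68 and 4.88 to 18.3, 19.1, 23.6, 16.6 and 21.4 CPM. The members not called were Man2b1, Tfeb and Mcoln1, with log2 changes of 0.04, -0.17 and -0.16; Tfeb is itself a transcription factor known for driving lysosomal genes. Mcoln1 was called lower without day 3 replicate 5 (log2 change -0.22, edgeR adjusted p = 0.048).

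Haem and iron genes rose in 9 of 17 cases and fell in 3, with a median of 0.93. Hmox1, haem oxygenase 1, which breaks haem down, rose from 1584, 2133 and 1593 CPM to 3707, 3739.5, 3739, 3566 and 4527 CPM (log2 change 1.12 ± 0.26). Slc48a1, which moves haem out of the lysosome, rose from 58.6, 82 and 68.5 to 219.9, 186, 227, 202 and 266 CPM. Slc40a1, the iron exporter ferroportin, did not pass, at 46, 38.8 and 39.7 CPM at baseline and 40.1, 34.6, 42.6, 43.1 and 71.6 CPM at day 3. Tfrc, the transferrin receptor for iron uptake, fell from 148, 103 and 107 to 70, 67.3, 84.7, 59.3 and 68.5 CPM. With Fth1 these are genes of iron release, storage, export and uptake, and they did not share a direction.

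On the list of alternative activation and arginine metabolism 9 of 18 genes rose and 8 fell, with a median of 0.22. Of the genes of arginine and polyamine metabolism, Arg1 rose as above and Arg2, the mitochondrial arginase, rose from 1.78, 2.15 and 2.05 CPM to 33, 51.2, 29.5, 46.1 and 32.8 CPM. Srm, spermidine synthase, rose from 8.92, 9.9 and 9.32 to 33.3, 30.7, 34.1, 26.1 and 42.5 CPM. Sat1, which acetylates polyamines for breakdown or export, fell (-0.88 ± 0.11). Of the genes known for interleukin 4 activation, Retnla, Mgl2 and Mrc1 fell, and Irf4, a transcription factor of that state, fell from 46.7, 39.7 and 36.6 to 11.4, 17.7, 14.2, 14.2 and 13.1 CPM. Members of that kind also rose: Il4ra, the interleukin 4 receptor chain, and Pdcd1lg2, the inhibitory ligand PD-L2, had log2 changes of 0.67 ± 0.15 and 2.35 ± 0.48. Chil3, another marker of that state and also on the monocyte list, rose from 18.7 ± 8.48 CPM (SD, n = 3) to 375 ± 247 CPM (SD, n = 5).

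Proteases that act on the matrix rose in 13 of 23 cases and fell in 5, with a median of 0.54. Adam8, a membrane-bound metalloproteinase of leukocytes, rose from 53.6, 48.3 and 40.3 CPM to 1383, 1414, 1323, 1448 and 1271 CPM, a log2 change of 4.85 ± 0.19 (adjusted p = 1.5e-14). Its day 3 libraries lay within a narrow band far above baseline. Mmp14, a membrane collagenase that activates other proteases, rose from 34.5, 46.8 and 30.1 to 409, 366, 422, 426 and 465 CPM, and Timp1, an inhibitor of metalloproteinases, from 2.06, 2.83 and 2.31 to 54.5, 84.2, 45.9, 66.4 and 62.2 CPM. Mmp12, the macrophage elastase, rose from 93.3, 87.4 and 65.8 to 216, 316, 171, 265 and 223 CPM. Mmp13, a collagenase, fell from 170.0, 169.5 and 115 to 29.1, 61.1, 27.9, 51 and 29 CPM, and Adam19 from 192, 178 and 202 to 34.7, 29.7, 37, 18 and 19.8 CPM. None of these ranges overlapped between the groups. Mmp8, the neutrophil collagenase, rose from 1.99 ± 1.12 to 58.4 ± 19.9 CPM (SD, n = 3 and 5), while 4 of the other neutrophil granule and S100 markers fell.

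Matrix genes showed no common direction, 6 of 20 higher and 6 lower, with a median of 0.05. Fn1, fibronectin, rose from 446, 374 and 301 CPM to 4501, 7402, 5159, 7466 and 3523 CPM (log2 change 3.91 ± 0.37), and Tgfbi, a matrix protein induced by TGF-beta, from 656, 761 and 686 to 1860.3, 2316, 2068, 2636 and 2063 CPM. Dcn, the small proteoglycan decorin made mainly by fibroblasts, fell from 417, 276 and 393 to 44.2, 55.4, 16, 13.5 and 21.7 CPM. Cyr61, a matricellular protein also called Ccn1, fell from 179, 206 and 256 to 43.6, 37.5, 24.6, 22.8 and 38.4 CPM. Col1a1 did not pass: it read 110.1, 71.7 and 66.1 CPM and then 256, 167, 137, 63.3 and 149 CPM, and day 3 replicate 4 was below all baseline libraries (log2 change 0.90 ± 0.45, adjusted p = 0.089). Without that library it was called higher (log2 change 1.10, edgeR adjusted p = 0.034), and with the replicate number as a block as well (1.01, adjusted p = 0.020). The 9 fibroblast markers, which include Col1a1 and Dcn, summed to 776 to 1146 CPM at baseline and 249.9 to 1099 at day 3, and their part in the changes of matrix genes was not tested.

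The TGF-beta and Smad pathway, in which Smad7 is a feedback inhibitor, was mostly lower, with 20 of 31 genes down and 6 up and a median of -0.60. Among ligands, Tgfb1 rose from 223, 315 and 191 CPM to 348, 324, 386, 459 and 379.7 CPM (log2 change 0.64 ± 0.14, adjusted p = 5.0e-04). Inhba, the activin A subunit, rose from 5.74, 3.45 and 4.7 to 26.8, 112, 32.5, 126 and 46.4 CPM, with replicates 2 and 4 well above the other three. The lowest day 3 value of Tgfb1 was only just above baseline replicate 2. Itgav, an integrin chain that activates latent TGF-beta, had a log2 change of 1.59 ± 0.17. Among receptors, Tgfbr2 fell from 299, 292 and 296 to 210.5, 205, 250.5, 193 and 183 CPM, while Acvrl1 fell and Acvr1b rose with log2 changes of -0.94 ± 0.11 and 0.43 ± 0.09. Tgfbr1, the type I receptor, did not pass (log2 change -0.07 ± 0.12).

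Among the Smads, Smad3, which carries the TGF-beta signal, rose from 42.2, 40.8 and 36.6 CPM to 52.1, 62, 69.2, 73.7 and 43.9 CPM. The inhibitory Smad6 fell from 22.5, 21.4 and 19.2 to 8.85, 5.89, 7.66, 5.84 and 10.1 CPM and Smad7 from 55, 61.2 and 53.1 to 42, 32.4, 30.4, 34.8 and 34 CPM (log2 changes -1.45 ± 0.27 and -0.70 ± 0.25, adjusted p = 6.5e-05 and 0.018). The groups were separate for both genes, but Smad7 did not pass without baseline replicate 2 (log2 change -0.64, edgeR adjusted p = 0.063) or without the filter on low counts (adjusted p = 0.056). Day 3 replicate 5 was nearest to baseline for Smad3. Id3, a target of BMP signalling, fell from 191, 263 and 213 to 50.6, 45.8, 44.1, 41.8 and 63.5 CPM. Several members that fell are also known from endothelial cells, such as Acvrl1, Eng, Id1 and Smad6, and the part of the endothelial marker sum given above in these changes was not tested.

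Growth factors rose in 8 of 17 cases and fell in 5, with a median of 0.43. Vegfa, which drives vessel growth, rose from 64.2, 63.5 and 40.3 CPM to 481, 684, 557, 832 and 512 CPM, a log2 change of 3.45 ± 0.25 (adjusted p = 1.7e-10). Grn, progranulin, rose from 714, 1193 and 688 to 2394, 1968, 2519, 2344 and 2712 CPM. Pdgfb, a platelet-derived growth factor chain that recruits mural cells, fell from 132, 181 and 159 to 70.1, 50.1, 56.2, 43.2 and 60.4 CPM. Hbegf, a ligand of the EGF receptor, fell from 67.3, 74.4 and 49.6 to 23.3, 31.1, 18.8, 24.3 and 24.4 CPM. Areg, amphiregulin, another such ligand, was called higher with a log2 change of 1.20 ± 0.34, and its day 3 replicate 1 lay inside the baseline range. The other ranges named here did not overlap.

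Efferocytosis, the uptake of dying cells, had 7 of 20 genes higher and 10 lower, with a median of -0.29. Beside Timd4 and Mertk, Pros1, the bridging protein S, fell from 152, 147 and 176 CPM to 67.5, 76.4, 68.2, 64.2 and 65.2 CPM, and C1qa, the complement opsonin, from 1929.8, 3029 and 2357 to 1468, 1373, 1587, 1195 and 1708 CPM. Cd300lf, a lipid-binding receptor of myeloid cells, rose from 8.22, 7.3 and 8.94 to 109, 131, 100.1, 164 and 123 CPM (log2 change 3.94 ± 0.19, adjusted p = 3.3e-13). Anxa1, a phosphatidylserine-binding mediator that limits inflammation, rose from 154, 129 and 146 to 384, 434, 353, 424 and 390.5 CPM.

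Of 28 complement and coagulation genes tested 10 rose and 10 fell, with a median of 0.16. Beside F7, F10, coagulation factor X, rose from 12.1, 12.8 and 9.96 CPM to 128, 249.9, 106, 239 and 138 CPM (log2 change 3.89 ± 0.36), and Itgax, a chain of complement receptor 4, had a log2 change of 1.27 ± 0.13. C4b, a component of the classical pathway, fell from 676, 793 and 509.6 to 120.1, 188, 95.5, 182 and 104 CPM, and C6, of the membrane attack complex, from 7.47, 16.4 and 8.94 CPM to 0.148, 0.453, 0.202, 0.508 and 0.286 CPM, few counts per library. C3, the central component, read 197, 164 and 156 and then 158, 282, 159, 297 and 150.4 CPM and did not pass (adjusted p = 0.47).

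Genes of glycolysis and the hypoxia response rose together, 24 of 26 higher and 2 lower, with a median of 1.72. Under low oxygen the factor HIF binds DNA at a core that reads ACGTG. For 24 of these genes RefSeq holds a start site (GRCm38.p6), and the letters ACGTG, on either strand, were in the 250 bases before it in 13 (54.2%), against 2417 of 11456 promoters of genes tested here (21.1%). The list was put together from genes known for glycolysis and hypoxia, so its share is no result of the day 3 change. Among the immediate early and heat shock genes, most of which fell, the letters were in 6 of 21 promoters (28.6%). These letters also occur in E-boxes, and a match is a description of the sequence, not a bound site. It was 1 of 3 motifs searched; the others were the heat shock element and the CArG box. The promoters of Pgk1, Ldha and Slc16a3 are shown as examples among the promoters with 2 or more matches, which include Hif1a, Hk2 and Bnip3; they were chosen after the matches and values were seen. Each is 250 bases, 5′ to 3′ on the strand of the gene, with ACGTG or its reverse complement CACGT in capitals. The letters CACGTG hold both and were counted as 2 matches. The coordinates are chrX:106186850-106187099 (plus strand), chr7:46845554-46845803 (plus strand) and chr11:120948817-120949066 (plus strand).
Pgk1: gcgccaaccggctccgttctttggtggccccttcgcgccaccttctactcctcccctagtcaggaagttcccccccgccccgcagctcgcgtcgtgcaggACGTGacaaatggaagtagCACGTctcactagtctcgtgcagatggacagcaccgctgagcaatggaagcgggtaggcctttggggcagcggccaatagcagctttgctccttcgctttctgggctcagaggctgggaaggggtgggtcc
Ldha: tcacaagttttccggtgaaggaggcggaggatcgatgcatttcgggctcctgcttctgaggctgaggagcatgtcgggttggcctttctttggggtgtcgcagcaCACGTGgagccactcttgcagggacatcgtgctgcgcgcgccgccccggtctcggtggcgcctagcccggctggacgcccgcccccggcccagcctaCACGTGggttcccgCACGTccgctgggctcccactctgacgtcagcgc
Slc16a3: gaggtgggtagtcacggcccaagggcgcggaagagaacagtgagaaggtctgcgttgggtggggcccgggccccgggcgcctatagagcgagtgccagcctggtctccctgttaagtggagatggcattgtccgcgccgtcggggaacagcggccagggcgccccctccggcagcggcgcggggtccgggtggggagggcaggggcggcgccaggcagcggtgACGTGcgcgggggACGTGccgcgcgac

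Pgk1, phosphoglycerate kinase, rose from 91.5, 88.3 and 90.6 CPM to 609, 858, 598, 864 and 649.7 CPM, a log2 change of 2.99 ± 0.17 (adjusted p = 3.2e-12). Ldha, which makes lactate, rose from 246, 321 and 254 to 849.9, 1012, 858, 1117 and 1028 CPM, and Slc16a3, the exporter of lactate, from 69.5, 85.1 and 57.5 to 324, 454, 329, 559 and 387 CPM. Hif1a, the oxygen-sensitive subunit of HIF, rose from 84.2, 72.6 and 71.8 to 339, 407, 319, 401 and 278 CPM. Every day 3 library was above every baseline library for each of these genes. Pgam1, phosphoglycerate mutase, rose from 33.2, 35.4 and 26.3 to 212, 262, 229.7, 243 and 198 CPM and Pkm, pyruvate kinase, from 409.7, 483 and 395 to 2243, 2657, 2266, 2907 and 2607 CPM. Slc2a1, the glucose transporter, had a log2 change of 2.08 ± 0.20.

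The 2 members that fell were Pfkfb3, a regulator of glycolysis, from 354, 338 and 271 to 132, 126, 154, 153 and 164 CPM, and Adm, adrenomedullin, from 9.75, 11 and 10.1 to 3.41, 4.08, 2.28, 2.54 and 3.94 CPM. Both are known hypoxia targets, and Pfkfb3 is one of the genes whose promoter holds ACGTG. Adm is also made by endothelial cells, and the part of their lower marker sum was not tested.

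The citrate cycle and respiratory chain divided by genome. Of 41 members encoded in the nucleus other than the Ppargc1 co-activators, 37 rose and none fell, with log2 changes from 0.01 to 1.40 and a median of 0.76. All 5 members encoded in the mitochondrial genome fell, with log2 changes from -1.54 to -1.24. Mdh2, mitochondrial malate dehydrogenase, rose from 69.4, 84.6 and 77.5 CPM to 174, 194, 189, 196 and 181 CPM, and Cs, citrate synthase, from 88.9, 102 and 93.2 to 173, 189, 180.0, 172 and 179.6 CPM. mt-Co1, a subunit of cytochrome oxidase, fell from 9664, 12419 and 13974 to 5010.3, 5799, 5330.5, 3734 and 5651 CPM, and mt-Cytb, cytochrome b, from 3579, 5053 and 5575 to 1423, 1922, 1793, 1098 and 1924 CPM. Day 3 replicate 4 was the lowest for both mitochondrial genes and held the largest share of ribosomal RNA, and baseline replicate 1 was the lowest of its group. Ppargc1a and Ppargc1b, co-activators of mitochondrial biogenesis, were called lower at levels of a few CPM or less. Cardiomyocytes are rich in mitochondrial transcripts, and their 10 markers summed to 95.1 to 125 CPM at baseline and 12.8 to 28.6 at day 3; their part was not tested.

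Cell cycle genes rose in 34 of 40 cases and fell in 2, with a median of 1.01. Top2a, a topoisomerase of dividing cells, rose from 57.5, 50.1 and 52.8 CPM to 161, 122, 148, 65.8 and 100.2 CPM and Mcm5, of the replication licensing complex, from 28.9, 27.7 and 29.3 to 99.1, 77.8, 87.9, 52.2 and 74.6 CPM. Mki67, the proliferation marker, read 96.4, 69.7 and 78.2 at baseline and 213, 153, 218, 88 and 132 at day 3: it was called higher (adjusted p = 0.0011), but replicate 4 lay inside the baseline range. Replicate 4, which carried the most Ly6c2, was the lowest day 3 library for each of these genes. Cdk4, a kinase of the entry into the cycle, had a log2 change of 1.09 ± 0.10. The 2 cyclins of that kinase on the list fell, Ccnd2 from 147, 152 and 126 to 33.9, 46.9, 28.9, 51.3 and 45.7 CPM and Ccnd1 with a log2 change of -0.47 ± 0.15. Ccnd3 was not on the list.

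Proteasome genes rose in 29 of 32 cases with none lower and a median of 1.06. Psmd2, a base subunit of the cap, rose from 112, 133 and 118 CPM to 291, 303, 299, 321 and 324 CPM, and Psmd11, of its lid, from 36.7, 39.3 and 39.4 to 95.7, 101, 105, 126 and 107 CPM. Of the interferon-induced subunits, Psmb8 and Psmb9 did not pass (log2 changes 0.33 ± 0.18 and -0.27 ± 0.25), while Psmb10 rose (0.59 ± 0.17). Psme1, of the interferon-induced activator, was the remaining member not called (log2 change 0.35 ± 0.16, adjusted p = 0.054). Without baseline replicate 2, Psmb8 and Psme1 were called higher (log2 changes 0.61 and 0.56, edgeR adjusted p = 0.0077 and 0.0066), and Psme1 also without day 3 replicate 1 or 3 (adjusted p = 0.044 and 0.048). Cytosolic ribosomal protein genes were higher in 48 of 75 cases and lower in none, but none reached 2-fold, and the median was 0.41. Rps2 rose from 443, 654 and 539.6 to 1043, 1024, 1034, 1019 and 1220.1 CPM and Rplp0 from 684, 933 and 802 to 1375, 1513, 1375, 1371 and 1575 CPM.

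MHC class II and co-stimulation was among the groups that fell, with 10 of 17 lower, 5 higher and a median of -0.72. Beside Cd74 and H2-Aa, the class II beta chain H2-Eb1 fell from 3025, 4223 and 3365 CPM to 982, 1127, 1029, 911 and 1127 CPM. Ciita, the master transactivator of class II genes, fell from 63.7, 52.2 and 58.1 to 10.7, 13.1, 15.1, 14 and 11.4 CPM (log2 change -2.17 ± 0.19, adjusted p = 2.3e-09). Cd83, a surface protein that stabilises class II, fell from 2078, 2278 and 2032 to 663, 748, 802, 750.0 and 891 CPM. Ctss, cathepsin S, which trims the invariant chain, rose from 1072, 1124 and 1080.2 to 2624, 3157, 3092, 3792 and 3296 CPM, and Cd274, the inhibitory ligand PD-L1, rose from 42.9, 56.1 and 37 to 114, 165, 119.8, 189.5 and 133 CPM. No range overlapped between the groups. B cells also carry class II; their 7 markers all fell, and their part was not tested. Ighm, the most abundant of them, read 168 ± 23.7 CPM (SD, n = 3) at baseline.

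Interferon-induced genes gave no common direction: 7 of 36 rose, 8 fell, and the median was 0.02. Irf7, a regulator of type I interferon, rose from 55.4, 111 and 47.9 CPM to 120.2, 119, 116, 232 and 154 CPM, and Oas3, an RNA sensor, from 14.7, 21.2 and 7.4 to 53.8, 47.5, 53.7, 90.4 and 73 CPM. Baseline replicate 2 was the highest of its group for both, and Irf7 did not pass without baseline replicate 1 or 3 (edgeR adjusted p = 0.057 and 0.066). Isg15, a ubiquitin-like protein, was called higher with a log2 change of 0.88 ± 0.31 and overlapping ranges; it did not pass without baseline replicate 1 or 3 (adjusted p = 0.061 and 0.11) or with the replicate number as a block (0.070). Ifi209, a member of a family of DNA-binding proteins, rose with a log2 change of 0.96 ± 0.19. The guanylate-binding proteins Gbp7 and Gbp3, known targets of interferon gamma, fell with log2 changes of -1.68 ± 0.20 and -1.40 ± 0.19.

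Immediate early and heat shock genes fell, 22 of 25 lower and 1 higher, with a median of -1.72. These genes are switched on within minutes by stimulation or stress, including the handling of tissue and cells. Their summed level was 42325 to 53269 CPM at baseline, and 14098 to 17414 at day 3. The labels describe no difference in how the 2 kinds of heart were taken apart; the part of tissue handling was not tested. Hspa1b, the inducible heat shock protein 70, lies at chr17:34956436-34959238 and Hspa1a at chr17:34969190-34972156, both on the minus strand. Hspa1b fell from 5238, 5976 and 6035 CPM to 231, 151, 148, 128 and 196 CPM (log2 change -5.07 ± 0.35, adjusted p = 3.0e-10). Hspa1a fell from 3135, 3749 and 3524 to 184, 112, 105, 102 and 140.5 CPM (log2 change -4.75 ± 0.30). The 2 genes are near-identical neighbours, so the division of reads between them is uncertain and they are best read together. Their promoters show how close the copies are: over the 250 bases before each start (RefSeq, GRCm38.p6) they differ at 3, printed in capitals. Both sequences run 5′ to 3′ on the minus strand, from chr17:34972157-34972406 and chr17:34959239-34959488.
Hspa1a: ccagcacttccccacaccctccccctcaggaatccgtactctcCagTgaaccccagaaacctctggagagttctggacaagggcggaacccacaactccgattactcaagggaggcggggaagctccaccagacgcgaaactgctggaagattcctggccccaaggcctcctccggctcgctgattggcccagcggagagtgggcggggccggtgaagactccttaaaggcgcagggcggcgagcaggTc
Hspa1b: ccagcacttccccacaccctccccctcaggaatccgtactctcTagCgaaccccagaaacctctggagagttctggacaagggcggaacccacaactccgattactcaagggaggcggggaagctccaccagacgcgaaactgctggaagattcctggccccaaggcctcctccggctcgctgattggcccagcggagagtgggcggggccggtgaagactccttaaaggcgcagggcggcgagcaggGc

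A heat shock element of 3 alternating units (TTC, GAA and TTC, or GAA, TTC and GAA, each 2 bases from the next) was in none of the 21 promoters of this list that RefSeq holds and in 0.314% of promoters of genes tested. Only 4 of the 6 heat shock members were among the 21. Elements with an inexact unit or further from the start were not searched. With so low a share elsewhere, finding none does not show that these genes lack such elements. The CArG box, at which serum response factor binds, was in 1 of the 21 and in 1.19% of promoters of genes tested. Hsp90aa1 fell from 3290.4, 3142 and 3576 CPM to 693, 754, 697, 645 and 751 CPM. Among the transcription factors, Fos fell from 1908, 2073 and 3346 to 532, 464, 468, 555 and 674 CPM and Jun from 2182, 2236 and 3442 to 361, 297, 341, 327 and 360.1 CPM (log2 changes -2.18 ± 0.23 and -2.96 ± 0.15). Egr1 fell from 1822, 2382 and 2579 to 219.6, 202, 157, 224 and 302 CPM, and Atf3, a stress-induced repressor, from 2171, 2319.6 and 2579 to 361, 329, 361, 361 and 402 CPM. Baseline replicate 3 was the highest for Fos and Jun. Nr4a2, a nuclear receptor of the same early response, went the other way, from 194, 186 and 135 to 228, 286, 281, 359 and 223 CPM (log2 change 0.68 ± 0.17).

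Transcription factors of the macrophage lineage divided, 11 of 30 higher and 10 lower, with a median of -0.06. Beside Nr1h3, Runx3 rose from 62.7, 54.8 and 57.3 CPM to 136, 139, 158, 179 and 131 CPM, and Cebpb, a factor of inflammatory and wound macrophages, was called higher with a log2 change of 0.78 ± 0.24 and overlapping ranges, a call lost without baseline replicate 1 (edgeR adjusted p = 0.053). Klf4 fell from 1248, 1290.3 and 1410.2 to 401, 372, 397, 528 and 371 CPM and Mef2c from 196, 168 and 216 to 65.1, 71.1, 79.4, 66.8 and 62.4 CPM. Endothelial cells also express Klf4 and Mef2c, and the part of their marker sum was not tested.

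Genes of adhesion and migration rose in 22 of 31 cases and fell in 4, with a median of 0.98. Itgam, the CD11b chain on which the cells were selected, rose from 134, 138 and 126 CPM to 286, 416, 306, 520.2 and 363 CPM, so the selected protein's own mRNA differed between the groups. Anxa2 and Anxa4, annexins that bind membranes with calcium, rose with log2 changes of 1.96 ± 0.13 and 1.66 ± 0.12. The integrin chains Itga9 and Itgal fell with log2 changes of -0.73 ± 0.10 and -1.14 ± 0.27. Of 27 Fc, lectin and Ms4a receptors 15 rose and 5 fell, with a median of 0.42. Fcgr1, the high-affinity receptor for IgG, rose from 74.2, 96.5 and 82.2 to 241, 308, 304, 442 and 356 CPM, Fcgr4 from 50.4, 62.1 and 44.7 to 73.2, 129, 85.8, 154 and 100 CPM and Ms4a6d from 180.0, 135 and 128 to 519.7, 643, 598, 630.3 and 584 CPM. The 5 that fell were all lectins, among them Cd209f and Cd209g.

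Markers of cells other than macrophages were mostly lower at day 3. All 8 endothelial, all 8 mural and all 10 cardiomyocyte markers fell, as did 7 of 7 B cell, 6 of 7 natural killer cell and 4 of 5 T cell markers tested. Pecam1, an endothelial adhesion molecule, went from 405 ± 56.5 CPM (SD, n = 3) to 118 ± 38.9 CPM (SD, n = 5). Fibroblast markers divided: Dpt, dermatopontin, fell from 69.1 ± 12.9 to 5.41 ± 2.45 CPM, while Postn, periostin, did not pass (36.3 ± 6.11 and 54.8 ± 26.9 CPM). Neutrophil markers summed to 191 to 223 CPM at baseline and 183 to 308 at day 3, and the T cell gene Cd3e was too low to test. Platelet markers summed to 13.6 to 14.5 CPM at baseline and 49.5 to 129.6 at day 3. Of the 5 platelet markers tested 2 fell and 1 rose. The 1 that rose was Ppbp, from 127, 120 and 168 counts at baseline to 907, 1939, 815, 1256 and 1479 counts at day 3. Mast cell markers summed to 9.79 to 12 and 14.7 to 20.1 CPM, with 1 higher and 1 lower of 2 tested. Dendritic cell markers split, 4 higher and 5 lower. Of the 10 macrophage markers, 4 rose, 3 fell and 3 did not pass: Cd14, the lipopolysaccharide co-receptor, rose with a log2 change of 1.60 ± 0.16, Csf1r, the receptor for Csf1, fell (-0.87 ± 0.11), and Adgre1, which encodes F4/80, did not pass (0.04 ± 0.13).

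**Figure D4:**
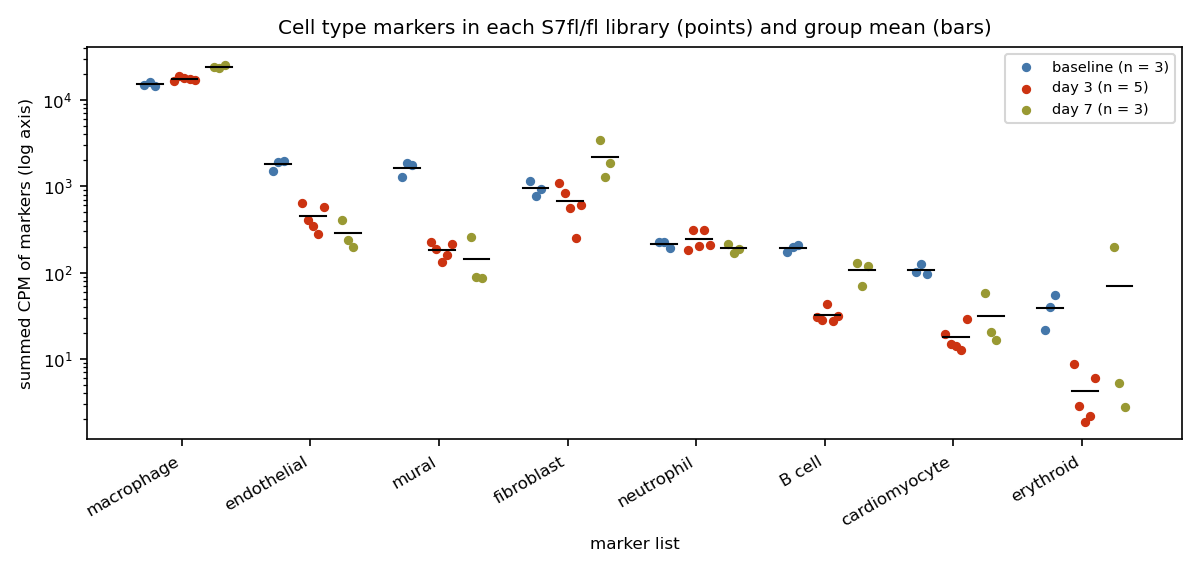
Summed CPM (log axis) of 8 marker lists in each S7fl/fl library at baseline (blue), day 3 (red) and day 7 (olive), with black bars at group means. Macrophage markers are the highest in every library, and endothelial, mural, B cell, cardiomyocyte and erythroid sums are lower at day 3 than at baseline without overlap.

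At day 7 some of these genes had moved back towards baseline. Between day 7 and day 3 of S7fl/fl mice 3587 genes (21.7%) differed, 1909 (11.5%) higher and 1678 (10.1%) lower at day 7. Of the 4941 genes higher at day 3, 1415 (28.6%) were lower at day 7 than at day 3 and 236 higher. Of the 5648 lower at day 3, 1213 (21.5%) were higher at day 7 and 47 lower. Both comparisons contain the day 3 libraries, so these shares are not independent of each other. Without S7fl/fl day 7 replicate 2 the counts against day 3 were 1251 higher and 974 lower.

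Glycolysis, proteasome and class II genes were among those that moved back. Of the 24 glycolysis and hypoxia genes higher at day 3, 19 were lower at day 7, as with Pgk1, at 255, 335 and 316 CPM (log2 change -1.24 from day 3, adjusted p = 5.9e-06). Of the 29 proteasome genes, 25 were lower. Cxcl3 was at 59.9, 224 and 79.2 CPM, F10 at 30.9, 38.9 and 45.9 CPM and Inhba at 6.9, 14.8 and 13 CPM, all called lower than at day 3. All 10 of the class II and co-stimulation genes that fell at day 3 were higher at day 7: H2-Aa was at 2218, 2069 and 2561 CPM and Cd83 at 2083, 1805 and 1839 CPM. Atf3, at 794, 714 and 922 CPM, was among 12 of 22 immediate early and heat shock genes that were higher again, but Hspa1b, at 240.3, 261 and 258 CPM, was not called (adjusted p = 0.23).

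Gpnmb and Timd4 were not called between the later times. Gpnmb was at 992, 1104 and 2463 CPM and Timd4 at 6.63, 2.62 and 2.67 CPM (adjusted p against day 3 = 0.47 and 0.25). Of 35 lysosomal genes higher at day 3, 4 were lower at day 7. Genes that had not passed at day 3 were called later: Cx3cr1 was at 369, 341 and 249 CPM at day 7 (log2 change 1.38 from day 3, adjusted p = 2.5e-05), Tgfbr1 at 536, 476 and 537 CPM and Col1a1 at 807, 287 and 401 CPM. Mmp2, gelatinase A, fell from 61.8, 50.2 and 50 CPM at baseline to 14.1, 10.9, 5.24, 4 and 6.8 CPM at day 3 and stood at 84.2, 32.5 and 32.5 CPM at day 7. Fibroblast markers summed to 1295 to 3425 CPM at day 7, and their part in the day 7 levels of Col1a1 and Mmp2 was not tested.

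**Figure D5:**
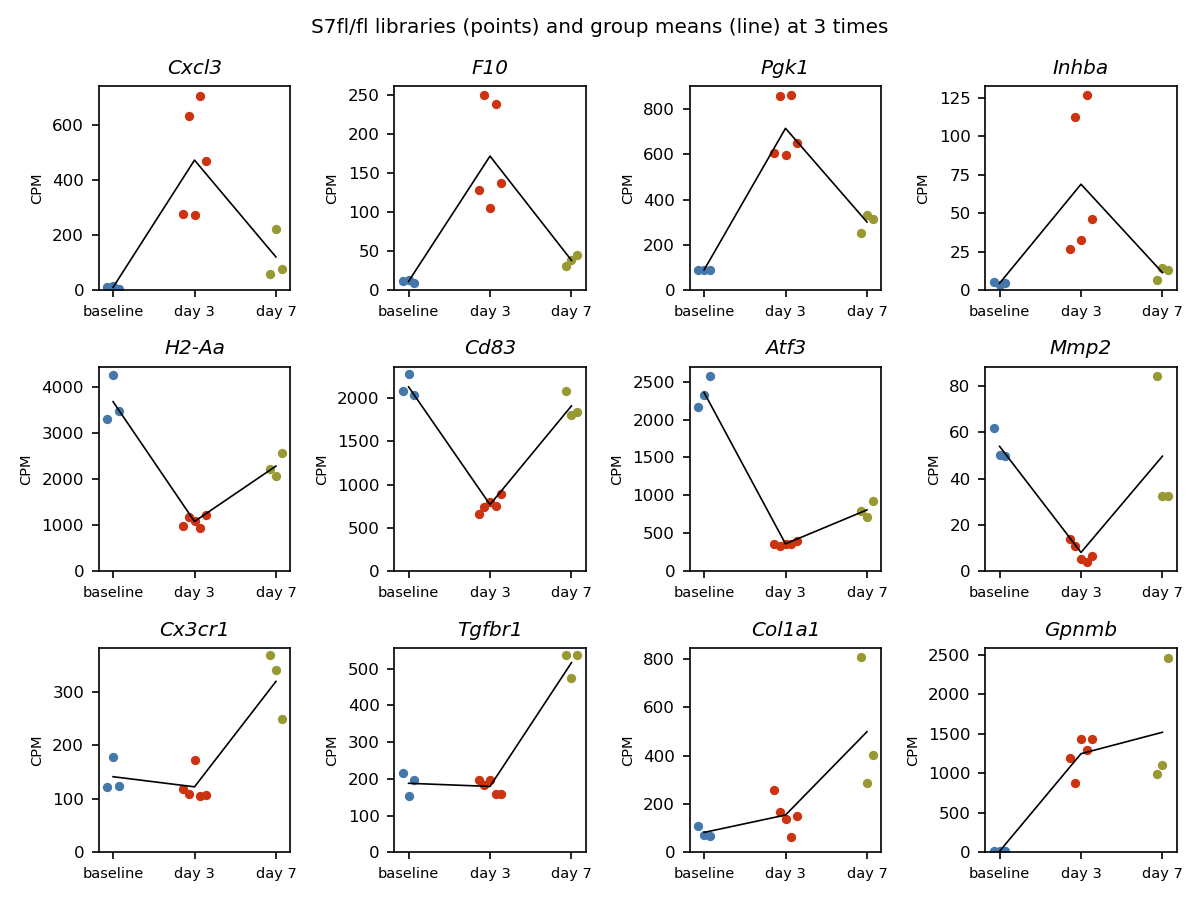
CPM (linear axis from 0) of 12 genes in each S7fl/fl library at baseline (3 points), day 3 (5 points) and day 7 (3 points), with a line through the group means. The top row peaks at day 3, the middle row dips at day 3, and Cx3cr1, Tgfbr1 and Col1a1 have their highest mean at day 7.

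The same contrast in MyS7KO mice, in which LyzM-Cre acts on the floxed Smad7, called 10904 genes (65.9%). The difference of the day 3 change between the genotypes was tested for every gene by an interaction term, and 0 of 16545 genes (0%) passed. At an unadjusted p under 0.05 there were 741 genes in edgeR's test, and DESeq2 and limma-voom also called 0. For Spp1 the difference in log2 change, MyS7KO minus S7fl/fl, was -0.40 (adjusted p = 0.9), for Arg1 -1.38 (adjusted p = 0.88) and for Timd4 -0.06 (adjusted p = 0.99). A p that misses the threshold does not show that the genotypes responded alike.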

How the data were processed

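The authors deposited whole-number read counts per gene for 23 libraries, and FPKM values (scaled by gene length and library depth) for the same libraries. Per the submitters' processing notes, HTSeq 0.6.1, TopHat2 2.0.9 and Cufflinks 2.1.1 were used, on mm10 (GRCm38.p6); which tool made which value, and whether counting used strand, is not given in the sources used here. Without strand, overlapping antisense genes cannot be told apart, and near-identical genes (Hspa1a and Hspa1b, Ly6c1 and Ly6c2, the Cd209 family, MHC and globin genes) may share reads. The library text speaks of 8 libraries at construction and names no batch, so a batch shared by baseline or day 3 libraries could not be checked.

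Counts were fitted with edgeR 4.0.16 (R 4.3.3): filterByExpr over the 6 groups, TMM scaling, robust quasi-likelihood over all 23 libraries, which share 1 estimate of the spread, and Benjamini-Hochberg adjustment over 16545 genes. Tests were two-sided, with calls made where the adjusted p was below 0.05. A log2 change is given ± a standard error. That error is the size of the change divided by the square root of its quasi-likelihood F statistic. Adjusted p-values are edgeR's unless another tool is named. CPM are counts per 1000000 of the TMM-scaled library total, listed in replicate order. Within each group all pairs of libraries differed by more than sampling noise. The test was also run on simulated counts in which a small set of genes was changed by known folds, evenly in both directions. Far fewer genes changed there than were called here, so that run says nothing about the scaling in this comparison.

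Named genes were the 8 with the largest fold and the 5 with the largest CPM difference in each direction, taken from called genes whose log2 CPM averaged 2 or more over all libraries, with no overlap between the groups and no predicted, pseudogene or receptor segment symbol, and from each of 28 function lists its key genes and the 2 called members with the lowest p in each direction. Alox5ap, Bnip3, Cd83, Chil3, Eng, Hk2, Hsp90aa1, Id1, Il4ra, Ltc4s, Man2b1, Mcoln1, Mmp2, Pdcd1lg2, Pgk1, Psme1, Ptges, Sat1, Siglec1, Slc16a3, Tfeb and Tgfbr1 lie outside that rule and were chosen after their values were seen, as were the marker genes named. The lists and the comparison were chosen with earlier results of these data known. Other scalings, filters, tools (DESeq2 1.42.0, limma 3.58.1), FPKM and left-out libraries were tried as alternatives. Promoter letters are from a RefSeq table of GRCm38.p6, searched 250 bases before each start.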

Additional observations from a re-analysis of the deposited data

Results flagged for a closer look

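Within the 5 day 3 libraries, 11 of 207 genes and 2 of 43 marker and list sums examined had 1 library whose distance from its nearest neighbour was over 0.71 of the whole range. Chance alone passes this test in about 1 of 20 groups, so as many are to be met by chance, and the values below describe single libraries only; groups of 3 were not tested. Replicate 4 was the high library for Ly6c2, at 117 CPM against 33.6 to 43.9 in the other four, for Klf4, at 528 CPM against 371 to 401, and for Ppargc1a, at 0.508 CPM against 0.13 to 0.171. Replicate 4 was also the low library for the summed mast cell markers, at 14.7 CPM against 19 to 20.1. It is the S7fl/fl day 3 library with the largest share of transcripts of the other sex.

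Replicate 5 was the high library for Hmox1, at 4527 CPM, for Il10, at 303 CPM, for Slc40a1, at 71.6 CPM against 34.6 to 43.1, for S100a4, at 13 CPM, and for Rps2, at 1220.1 CPM against 1019 to 1043. Replicate 3 was the high library for Cx3cr1, at 174 CPM against 106 to 118, for Ighm, at 32.6 CPM against 20.3 to 22.2, and for the summed B cell markers, of which Ighm is one, at 43 CPM. Replicate 2 was the high library for Nos2, at 17.1 CPM against 7.45 to 9.54. Of these genes Cx3cr1, Nos2 and Slc40a1 were not called at day 3.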

How the results depend on the processing

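The counts at day 3 against baseline, 4941 higher and 5648 lower, stayed within 1.5 times under every alternative run: RLE scaling, no filter on low counts, DESeq2, limma-voom, only the groups compared, limma on log2(FPKM + 1) or log2(FPKM + 0.1), a sex covariate, and leaving out libraries. Leaving out 1 library of these groups gave 4611 to 4890 higher and 5048 to 5557 lower genes. On log2(FPKM + 1) without a filter there were 4675 higher and 6637 lower genes. No gene called at day 3 took the opposite sign in any of these fits. Because the FPKM values were not scaled by the library total, the fits on FPKM do not test that scaling. Day 7 against day 3, with 1909 higher and 1678 lower genes, moved more when libraries were left out one at a time, to between 1251 and 1785 higher and between 974 and 1555 lower; a left-out library also lowers the number of samples. The difference of the day 3 change between genotypes stayed at 0 genes in all but 1 alternative, limma on log2(FPKM + 1) without a filter, which called 15 genes; the cause was not tested.

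The replicate numbers do not pair the libraries: the correlations of same-numbered deviations over 2000 genes were -0.0658, -0.195 and 0.0594, and none of the 3 baseline libraries correlated best with its own number. With the number as a block the counts were 4876 higher and 5522 lower. With 3 baseline libraries, genes near or under 1 CPM carry the widest errors.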
